A study of Mus musculus with 24 samples.

Results

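The genes described here are 8 inflammatory genes of mouse microglia: the interleukin-1 family ligands Il1a, Il1b and Il18, the interleukin-1 receptor antagonist Il1rn, the cytokine Tnf, and the inflammasome genes Nlrp3, Pycard and Casp1. They were chosen by name, matched to Ensembl identifiers by mouse symbol, and make up 8 of the 49315 gene identifiers in the count table and 8 of the 17579 genes that passed the filter on low counts. All 8 passed it, and all are annotated as protein coding in GRCm38. Il1b (chr2:129364570-129371139) and Il1a (chr2:129299610-129309972) lie on the minus strand of the same chromosome as Il1rn (chr2:24336853-24351494, plus strand). Il18 (chr9:50554827-50581840) and Casp1 (chr9:5298517-5307265) are on the plus strand, as is Nlrp3 (chr11:59541568-59566956). Tnf (chr17:35199381-35202007) and Pycard (chr7:127989708-127993867) are on the minus strand.

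Interleukin-1 alpha and beta bind the same receptor, and the product of Il1rn occupies that receptor without signalling. Interleukin-1 beta and interleukin-18 are made as inactive precursors that caspase-1 cuts, and caspase-1 is itself activated on an inflammasome, in which the sensor NLRP3 recruits the adaptor ASC, the product of Pycard. In the brain, microglia are a main source of these cytokines, and mice that lack Tnf or Il1b are known for delayed remyelination after cuprizone. The libraries measured transcripts, so cleavage and release of the proteins were not measured.

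Brain microglia were sorted by intermediate CD45 and the presence of CD11b, and 24 RNA-seq libraries were made in 8 groups of 3. All mice received tamoxifen. Cre+ mice carried creERT2 under the control of Cx3cr1, a gene of microglia and other myeloid cells, and had an induced knockout of Dicer1, the enzyme that cuts microRNA precursors to their mature form. Cre- mice lacked the recombinase and served as wild type. The naive groups received tamoxifen at 4 to 5 weeks and no cuprizone, a copper chelator that kills oligodendrocytes and strips myelin. The demyelination groups received tamoxifen at 4 to 5 weeks and then cuprizone for 6 weeks. The start-tamoxifen remyelination groups had the same tamoxifen, 6 weeks of cuprizone and 6 further weeks of normal diet. The peak-tamoxifen remyelination groups differed from them, by their labels, in the tamoxifen, which was given at 5 weeks of cuprizone. The series describes the 3 samples of a group as biological replicates.

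Naive and demyelination libraries held 19.48 to 44.53 and 21.87 to 32.71 M counted reads (M, mega), against 8.87 to 12.56 and 8.94 to 12.09 M in the start-tamoxifen and peak-tamoxifen remyelination groups, so depth and remyelination cannot be told apart. The summed level of 9 microglia markers was 62250 to 70940 CPM (reads of a gene per M counted reads, scaled by TMM) in naive libraries. It was lower in every other library, at 39270 to 43670 CPM in demyelination and 33670 to 46260 CPM in remyelination. Markers of T, NK and B cells and of neurons did not exceed 7.59 CPM. Astrocyte markers summed to 67.6 to 435 CPM, oligodendrocyte markers to 162 to 224 CPM and endothelium markers to 25.0 to 112 CPM. Whole-gene Dicer1 counts do not separate the deleted part of the gene and so check no label. Cx3cr1 in 3 Cre+ libraries (naive replicate 1, demyelination replicates 1 and 3) stood at 1.61% to 2.18% of the Cre- mean of the same state, against 41.4% to 59.3% in the other Cre+ libraries. All Cre+ libraries were thus low in Cx3cr1, so lower Cx3cr1 and the Dicer1 knockout cannot be told apart in any comparison of genotypes. Neutrophil marker transcripts summed to 6068 CPM in peak-tamoxifen Cre+ replicate 3 and 4972 CPM in start-tamoxifen Cre- replicate 2, against 925.3 to 2623 CPM elsewhere. Among these markers the highest levels were 1400 CPM (Ngp), 1300 CPM (S100a8), 1050 CPM (Csf3r) and 1030 CPM (S100a9). Each is the maximum of that gene over all libraries. The highest count was that of Csf3r (40493), but libraries differed in depth, so counts do not rank the genes. The share of each gene in each sum was not separated, so the sums are not read as neutrophil content. Calls of the members and of the genes named from lists that were lost without either set of libraries are named beside the results.

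Il1b, Tnf and Il1rn were the members that changed most with demyelination. In Cre+ microglia they were 26.5-fold, 12.1-fold and 42.3-fold higher in demyelination than in the naive state, and in Cre- microglia 33.8-fold, 5.32-fold and 16.8-fold higher. Il1a, Pycard and Casp1 rose in Cre+ microglia, Casp1 alone of these rose in Cre- microglia, and Nlrp3 fell in Cre+ microglia. In all, 7 of the 8 genes were called in Cre+ microglia at an adjusted p (edgeR) under 0.05, where 52.2% of all tested genes were called, and 5 of the 8 in Cre- microglia, where 35.9% were. The median log2 fold change over the 8 genes was 0.58 in Cre+ and 0.22 in Cre- microglia, beside 0.01 and 0.04 over all tested genes. With replicate number as a block all 8 genes were called in Cre+ microglia, Il18 being the addition (adjusted p = 0.0435). Without the 3 low-Cx3cr1 libraries, which leaves 1 demyelination Cre+ library whose spread is assumed to be that of the other groups, the changes in Cre+ microglia were 4.50 for Il1b, 5.28 for Il1rn, 3.55 for Tnf, 0.74 for Pycard, 0.40 for Casp1 and -1.05 for Nlrp3 on the log2 scale, each with an adjusted p under 0.05 on that assumption, while the call of Il1a was lost (0.45, adjusted p = 0.133). Monocyte markers summed to 176 to 212 CPM in demyelination Cre+ and 97.0 to 217 CPM in demyelination Cre- libraries, against 22.9 to 81.6 CPM in naive libraries. Endothelium markers summed to 108 to 110 CPM in demyelination Cre+ and 80.0 to 99.7 CPM in demyelination Cre- libraries, against 26.0 to 53.1 CPM in naive libraries. The part of these, and of the lower microglia marker sums, in the values was not tested. Sorted cells were sequenced in bulk, so more transcript per microglia and more cells that hold the transcript cannot be told apart.

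**Figure D1:**
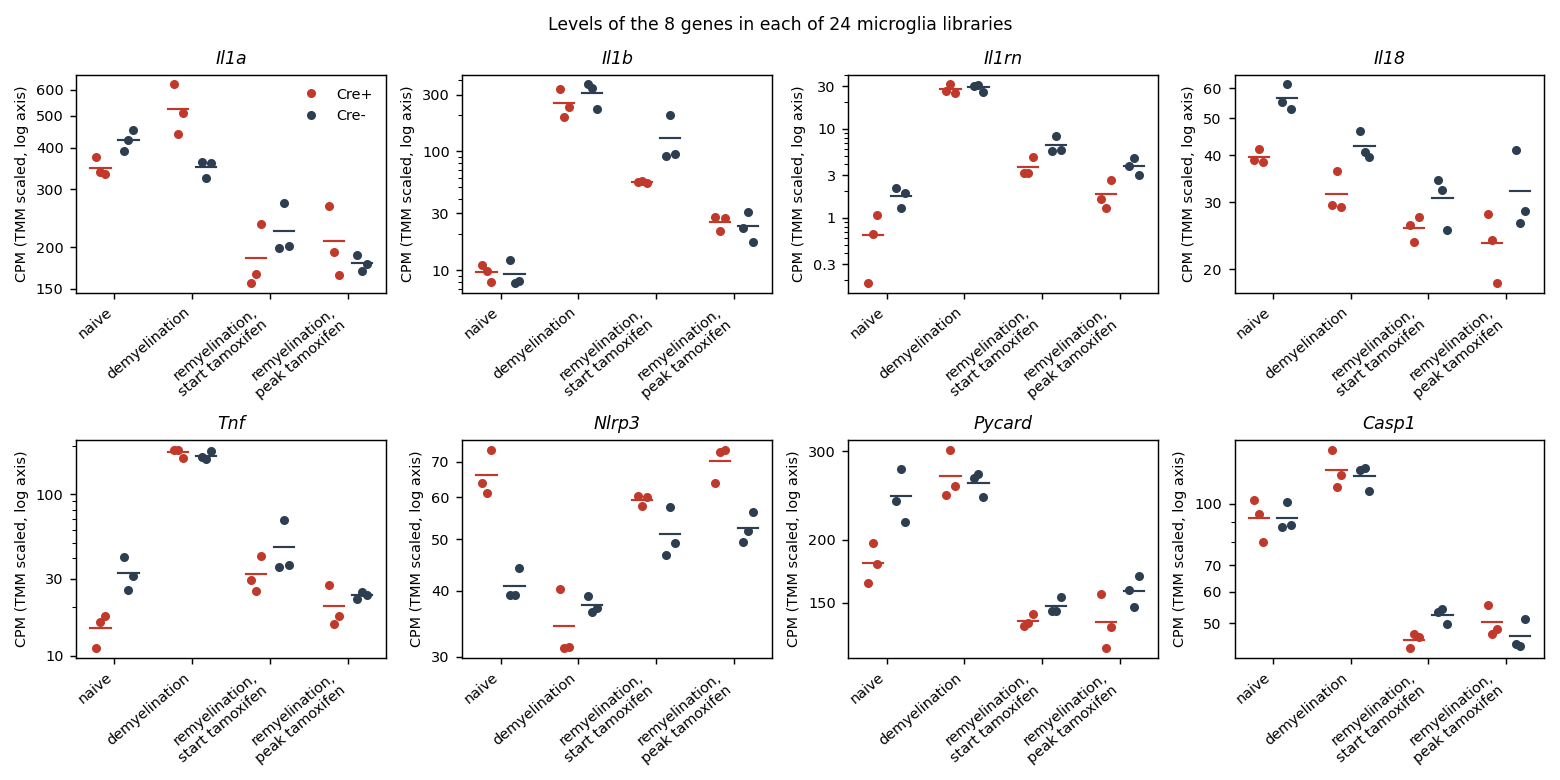
Level of each gene in each library, in TMM-scaled CPM on a log axis, by state from naive to remyelination, with Cre+ libraries left of Cre- libraries and a bar at each group mean (n = 3). The group means of Il1b, Tnf and Il1rn are highest in demyelination in both genotypes, while that of Nlrp3 is lowest there in both, with a change from naive called in Cre+ microglia alone.

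Il1b encodes the ligand that is held back as a precursor until caspase-1 cuts it, and its transcript is known to be induced on demand. The 250 bases before its RefSeq start (GRCm38.p6, minus strand, chr2:129371140-129371389) are shown because the gene had one of the widest ranges of level. Promoters were searched on both strands for an NF-kB consensus, an AP-1 site (TGANTCA), a C/EBP site (TTNNGNAA) and a PU.1 core (GAGGAA), and the capitals mark the one match, a C/EBP site, which 36.8% of 32851 promoters of this length also hold.
Il1b promoter: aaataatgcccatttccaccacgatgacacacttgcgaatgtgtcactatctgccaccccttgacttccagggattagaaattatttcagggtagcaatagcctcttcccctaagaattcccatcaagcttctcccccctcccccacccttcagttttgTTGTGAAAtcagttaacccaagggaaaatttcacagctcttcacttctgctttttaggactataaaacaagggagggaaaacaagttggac
In naive microglia Il1b stood at 11.04, 9.835 and 8.0 CPM in Cre+ libraries, and at 12.1, 7.84 and 8.08 CPM in Cre- libraries. In demyelination it stood at 334, 196 and 234 CPM in Cre+ libraries, and at 365, 342 and 228 CPM in Cre- libraries. Every demyelination library was above every naive library, and the genotypes overlapped in both states. The log2 fold change of demyelination over naive was 4.73 ± 0.34 (SE, adjusted p = 2.24e-09) in Cre+ and 5.08 ± 0.35 (adjusted p = 3.34e-09) in Cre- microglia. The start-tamoxifen remyelination libraries held 54.6, 56.0 and 54.6 CPM in Cre+ and 91.0, 202 and 94.0 CPM in Cre- microglia, so all 3 Cre+ libraries were below all 3 Cre- libraries. With peak tamoxifen, Il1b stood at 27.7, 21.4 and 27.3 CPM in Cre+ and 22.5, 30.6 and 17.1 CPM in Cre- libraries, which overlapped and all lay above the naive libraries. The log2 fold changes of Il1b relative to demyelination were -2.21 (start tamoxifen) and -3.32 (peak tamoxifen) in Cre+ microglia, and -1.27 (start) and -3.73 (peak) in Cre- microglia, all called.

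Tnf encodes tumour necrosis factor, a cytokine that signals through receptors on glia, neurons and endothelium. Its promoter (GRCm38.p6, minus strand, chr17:35202008-35202257) is shown for the same reason. The capitals mark 2 C/EBP matches and, between them, a PU.1 core, which 23.3% of promoters hold.
Tnf promoter: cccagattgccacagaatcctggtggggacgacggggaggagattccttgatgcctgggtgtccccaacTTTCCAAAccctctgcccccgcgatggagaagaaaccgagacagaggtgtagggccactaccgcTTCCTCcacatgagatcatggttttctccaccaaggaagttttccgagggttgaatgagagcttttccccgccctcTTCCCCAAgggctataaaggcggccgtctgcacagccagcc
The Tnf 3′ untranslated region is the one among the 8 members to hold the AU-rich nonamer TTATTTATT, with 5 copies, as do 8.08% of the 13451 tested genes with an annotated 3′ untranslated region of at least 50 bases. AU-rich elements of this kind are known to shorten the life of cytokine transcripts. A 30-base stretch with 4 overlapping copies in capitals (GRCm38, minus strand, chr17:35199681-35199710) reads as follows.
Tnf AU-rich stretch: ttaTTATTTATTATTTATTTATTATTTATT
Tnf stood at 11.14, 16.02 and 17.54 CPM in naive Cre+ libraries and at 40.8, 25.6 and 31.2 CPM in naive Cre- libraries, and the genotypes did not overlap. In demyelination it stood at 188, 188 and 168 CPM in Cre+ libraries, and at 169, 164 and 184 CPM in Cre- libraries, which overlapped. The log2 fold change of demyelination over naive was 3.60 ± 0.27 (SE, adjusted p = 2.28e-09) in Cre+ and 2.41 ± 0.26 (adjusted p = 5.7e-07) in Cre- microglia. In start-tamoxifen remyelination Tnf stood at 29.4, 25.2 and 41.3 CPM in Cre+ libraries, and at 35.2, 69.5 and 36.5 CPM in Cre- libraries. In peak-tamoxifen remyelination it stood at 27.3, 15.6 and 17.7 CPM in Cre+ libraries, and at 22.4, 24.6 and 23.6 CPM in Cre- libraries, so the genotypes overlapped after either tamoxifen timing. Relative to demyelination, the Tnf log2 fold change was -2.51 (start) and -3.17 (peak) in Cre+ microglia, and -1.87 (start) and -2.87 (peak) in Cre- microglia, all called.

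Il1rn, which encodes the antagonist of the interleukin-1 receptor, had the lowest level per kilobase of exon of the 8 genes in every group and the widest range, 45.7-fold between its lowest and highest group means. Naive libraries held 0.187, 0.652 and 1.08 CPM in Cre+ microglia, from 4, 27 and 28 reads, and 2.14, 1.30 and 1.88 CPM in Cre- microglia, from 39, 49 and 57 reads. Every naive Cre+ library was below every naive Cre- library. Demyelination libraries held 27, 31.60 and 25.65 CPM in Cre+ and 29.98, 31.45 and 26.20 CPM in Cre- microglia, and overlapped between genotypes. The log2 fold change of demyelination over naive was 5.40 ± 0.31 (SE, adjusted p = 4.69e-13) in Cre+ and 4.07 ± 0.28 (adjusted p = 3.53e-11) in Cre- microglia. Il1rn then stood at 3.21, 3.22 and 4.88 CPM in Cre+ and 5.59, 8.36 and 5.79 CPM in Cre- libraries of start-tamoxifen remyelination. In peak-tamoxifen remyelination it stood at 1.64, 1.29 and 2.63 CPM in Cre+ and 3.79, 4.66 and 3.05 CPM in Cre- libraries. In both remyelination states all Cre+ libraries were below all Cre- libraries, and all lay below the demyelination libraries, with called log2 fold changes of -2.90 (start) and -3.92 (peak) in Cre+ and -2.15 (start) and -2.92 (peak) in Cre- microglia.

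Il1a, the interleukin-1 ligand that needs no caspase-1 cleavage to act, had the highest level per kilobase of exon of the 8 genes in naive microglia. Naive libraries held 375, 338 and 334 CPM in Cre+ and 391.6, 423.5 and 454.4 CPM in Cre- microglia. Demyelination libraries held 622, 442 and 510 CPM in Cre+ microglia, all above the 364, 325 and 361 CPM of Cre- microglia. The change with demyelination was 0.59 ± 0.16 (log2, SE, adjusted p = 0.00375) in Cre+ microglia and -0.28 in Cre- microglia, where it was not called (adjusted p = 0.199). In Cre- microglia a call was made with no filter on low counts (-0.32, adjusted p = 0.0205), with the groups compared alone (-0.32, adjusted p = 0.0355) and with offsets for gene length and GC content (-0.53, adjusted p = 0.00383). The Cre+ change was not called without the low-Cx3cr1 libraries (0.45, adjusted p = 0.133) or with the same offsets (0.18, adjusted p = 0.306). Remyelination libraries held 157, 167 and 236 CPM (start tamoxifen) and 266, 194 and 165 CPM (peak tamoxifen) in Cre+ microglia, and 200, 272 and 203 CPM (start) and 189, 170 and 179 CPM (peak) in Cre- microglia. The genotypes overlapped in both remyelination states, and every remyelination library was below every demyelination library. Gm14023, a transcript on the opposite strand that overlaps Il1a, reached 3302 counts in a library and stood at 101 to 128 CPM in demyelination Cre+ and 83.5 to 98.2 CPM in demyelination Cre- libraries. Gm14023 changed with demyelination by 1.37 ± 0.25 (log2, SE, adjusted p = 0.000162) in Cre+ and 0.67 ± 0.25 (adjusted p = 0.0437) in Cre- microglia. Relative to demyelination it changed by -1.29 (start) and -1.43 (peak) in Cre+ microglia. In Cre- microglia it changed by -0.52 (start, not called) and -1.29 (peak). Whether counting used strand is not stated, so reads of Il1a and Gm14023 may not be told apart.

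The level of Il1b relative to that of Il1a also differed by state, a ratio given here as a description. Per kilobase of exon, the level of Il1b was 2.48% to 3.05% of that of Il1a in naive Cre+ libraries and 1.84% to 3.21% in naive Cre- libraries. In demyelination it was 45.8% to 55.5% in Cre+ and 65.4% to 109% in Cre- libraries, and the genotypes did not overlap. It was 23.9% to 36.1% in Cre+ and 47.2% to 77.0% in Cre- libraries of start-tamoxifen remyelination. In peak-tamoxifen remyelination it was 10.8% to 17.1% in Cre+ and 9.93% to 18.7% in Cre- libraries.

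Il18 encodes the other cytokine precursor that caspase-1 cuts, and its group mean was lower in Cre+ than in Cre- microglia in every state. Naive libraries held 38.8, 41.4 and 38.3 CPM in Cre+ and 55.2, 61.5 and 53.1 CPM in Cre- microglia. Demyelination libraries held 29.5, 36.2 and 29.2 CPM in Cre+ and 46.3, 40.9 and 39.4 CPM in Cre- microglia. The genotypes did not overlap in either of these states. Start-tamoxifen remyelination libraries held 26.1, 23.6 and 27.5 CPM in Cre+ and 34.5, 32.4 and 25.4 CPM in Cre- microglia, and peak-tamoxifen libraries 28.0, 23.9 and 18.4 CPM in Cre+ and 41.4, 26.5 and 28.5 CPM in Cre- microglia, with overlap in both. Its change with demyelination in Cre+ microglia was -0.32 ± 0.14 (log2, SE, adjusted p = 0.0656). It was called there with the groups compared alone (adjusted p = 0.0208) and without demyelination Cre+ replicate 2 (adjusted p = 0.0291). In Cre- microglia Il18 fell with demyelination, by 0.42 on the log2 scale (adjusted p = 0.0221). The call was lost without any one of naive Cre- replicate 2, demyelination Cre- replicate 2 and demyelination Cre- replicate 3 (adjusted p 0.0727 to 0.0889). With offsets for gene length and GC content the Il18 change was larger in both genotypes. It was -0.88 (adjusted p = 1.18e-06) in Cre+ and -0.82 (adjusted p = 5.27e-06) in Cre- microglia, or -0.73 and -0.70 relative to the median of all genes. Bco2, a protein-coding gene on the opposite strand, overlaps Il18 and reached 8548 counts, so Il18 values are uncertain in the same way as those of Il1a. Bco2 changed with demyelination by -0.95 ± 0.11 (log2, SE, adjusted p = 3.52e-08) in Cre+ and -0.96 ± 0.11 (adjusted p = 8.28e-08) in Cre- microglia, the direction of Il18. Bco2 was also higher in Cre+ microglia of peak-tamoxifen remyelination (0.48 ± 0.11, adjusted p = 0.0046), where Il18 stood lower. The part of Bco2 reads in the Il18 values was not tested.

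Nlrp3, the inflammasome sensor, had a pattern unlike the cytokines. Its promoter at the upstream RefSeq start (GRCm38.p6, plus strand, chr11:59541319-59541568) is shown because it is the one member promoter with the NF-kB consensus, which 7.25% of promoters hold. The capitals mark, in order, a C/EBP site, the NF-kB match, which reads on both strands, and a further C/EBP site.
Nlrp3 promoter: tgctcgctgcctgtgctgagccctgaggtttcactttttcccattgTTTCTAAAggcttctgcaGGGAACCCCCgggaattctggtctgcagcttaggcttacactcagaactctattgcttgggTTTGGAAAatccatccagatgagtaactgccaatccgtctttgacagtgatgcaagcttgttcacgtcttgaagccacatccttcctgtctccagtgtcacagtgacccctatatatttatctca
Nlrp3 stood at 63.9, 61.1 and 73.5 CPM in naive Cre+ libraries, all above the 39.2, 39.2 and 44.0 CPM of naive Cre- libraries. In demyelination it stood at 40.3, 31.2 and 31.3 CPM in Cre+ and 39.1, 36.5 and 37.0 CPM in Cre- libraries, which overlapped. It fell by 0.95 ± 0.10 (log2, SE, adjusted p = 2.49e-08) with demyelination in Cre+ microglia, and its change of -0.12 ± 0.11 in Cre- microglia was not called (adjusted p = 0.406). In start-tamoxifen remyelination it stood at 60.2, 57.7 and 60.2 CPM in Cre+ and 46.6, 57.5 and 49.2 CPM in Cre- libraries. In peak-tamoxifen remyelination it stood at 63.9, 72.9 and 73.7 CPM in Cre+ and 49.4, 51.7 and 56.3 CPM in Cre- libraries. In both states all Cre+ libraries were above all Cre- libraries. Nlrp3 rose relative to demyelination in all 4 comparisons, by 0.79 and 1.03 (log2) in Cre+ and by 0.45 and 0.48 in Cre- microglia with start and peak tamoxifen.

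Since Dicer1 encodes the enzyme that makes mature microRNAs, the 3′ untranslated regions of the members were searched for 7-base matches to the seeds (bases 2 to 8, in capitals below) of microRNAs known in myeloid cells. MicroRNA levels were not measured in these libraries, and a match is a description of sequence alone. The RefSeq mature sequences, 5′ to 3′, are as follows.
let-7a-5p: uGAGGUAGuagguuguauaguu
miR-155-5p: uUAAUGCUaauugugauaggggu
miR-146a-5p: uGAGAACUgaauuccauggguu
miR-223-3p: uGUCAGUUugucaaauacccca
miR-21a-5p: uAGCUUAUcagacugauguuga
miR-181a-5p: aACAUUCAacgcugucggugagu
No pair of these shares a seed. The miR-223-3p match is in Nlrp3 and Pycard and in 10% of the 13451 genes searched. The let-7a-5p match is in Il1a and Pycard and in 12.1% of genes, and the miR-181a-5p match is in Il1a and Tnf and in 19.5% of genes. None of the 8 holds the matches to miR-155-5p, miR-146a-5p or miR-21a-5p, which 9.82%, 13.7% and 8.31% of genes hold. Members with a match changed in both directions. Pycard and Tnf, which hold matches, were called lower in naive Cre+ than in naive Cre- microglia (log2 fold changes of -0.44 and -1.11). A site is shown for each of the 2 members called higher in Cre+ microglia in some state, with the bases around it and the match in capitals (GRCm38).
Nlrp3, miR-223-3p match (chr11:59566691-59566719, plus strand): gtcttcctgttAACTGACcatcccgcata
Il1a, let-7a-5p match (chr2:129300220-129300248, minus strand): ctacatctttcCTACCTCagtgggtttta

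Pycard, which encodes the adaptor ASC, and Casp1, which encodes the protease, had the smallest and a middling range of level, with 1.95-fold and 2.67-fold between their lowest and highest group means. Pycard stood at 164, 197 and 179 CPM in naive Cre+ libraries, all below the 239, 277 and 217 CPM of naive Cre- libraries, and at 246, 302 and 256 CPM in demyelination Cre+ beside 266, 271 and 243 CPM in demyelination Cre- libraries. It rose by 0.57 ± 0.10 (log2, SE, adjusted p = 4.67e-05) with demyelination in Cre+ microglia, while the change of 0.09 in Cre- microglia was not called (adjusted p = 0.545). Casp1 stood at 102, 94.1 and 80.1 CPM in naive Cre+ and 87.2, 101 and 88.6 CPM in naive Cre- libraries, and at 137, 110 and 118 CPM in demyelination Cre+ beside 122, 123 and 108 CPM in demyelination Cre- libraries. The genotypes overlapped for Casp1 in both states. Casp1 rose with demyelination by 0.40 ± 0.10 (adjusted p = 0.00162) in Cre+ and 0.35 ± 0.10 (adjusted p = 0.0087) in Cre- microglia. With offsets for gene length and GC content the Casp1 change was -0.07 (adjusted p = 0.62) in Cre+ and 0.04 (adjusted p = 0.797) in Cre- microglia, neither called, and the median of all genes was -0.15 and -0.13, against 0.01 and 0.04 without the offsets. Relative to that median, Casp1 was 0.08 (Cre+) and 0.17 (Cre-) with the offsets and 0.39 (Cre+) and 0.31 (Cre-) without them. With no filter on low counts the Casp1 change in Cre- microglia was also not called (0.29, adjusted p = 0.0529). In remyelination Pycard held 122 to 156 CPM in the Cre+ libraries and 145 to 170 CPM in Cre- libraries, all below the demyelination libraries. Casp1 held 43.4 to 55.8 CPM in the Cre+ libraries and 43.8 to 54.3 CPM in Cre- libraries there, all below the libraries of the other states.

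**Figure D2:**
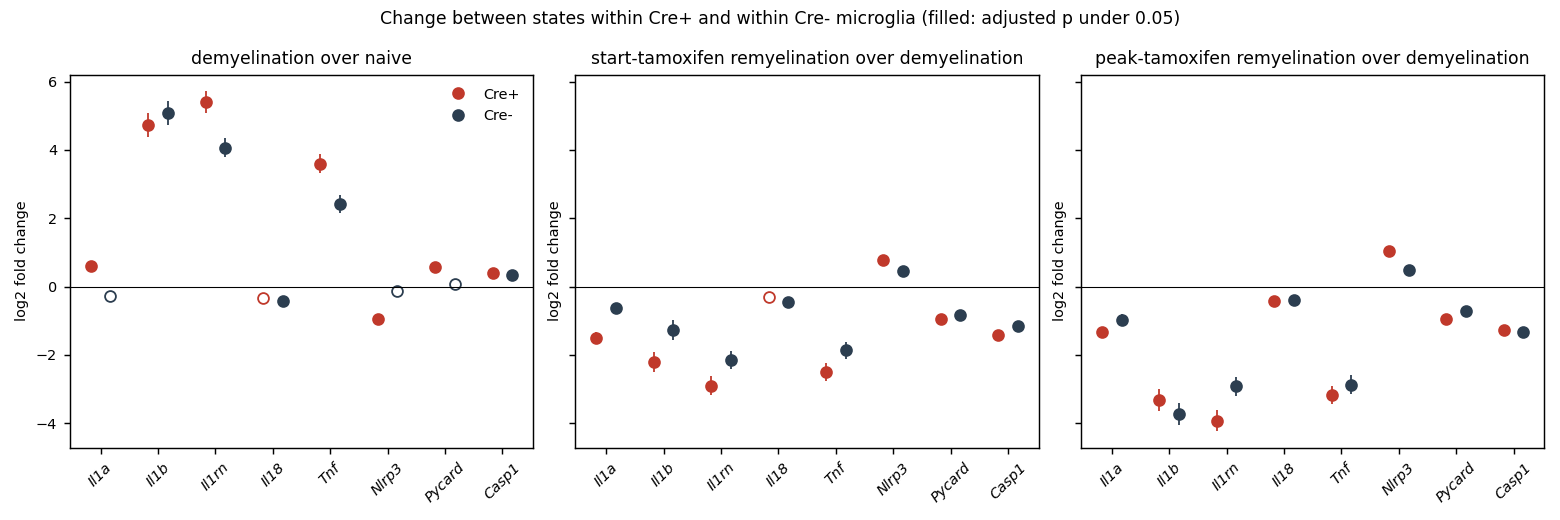
Log2 fold change of each gene between states, with its standard error, within Cre+ (left in each pair) and Cre- microglia, filled where the adjusted p is under 0.05. Demyelination over naive is largest for Il1rn, Il1b and Tnf, and Nlrp3 is the one gene above 0 in all 4 comparisons of remyelination with demyelination.

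After 6 weeks of normal diet the cytokines, the antagonist, Pycard and Casp1 were lower than at demyelination and Nlrp3 was higher. In start-tamoxifen remyelination 7 of the 8 genes were called in Cre+ microglia, where 63.3% of all tested genes were, with Il18 the exception (-0.30 ± 0.15, SE, adjusted p = 0.0847). All 8 were called in Cre- microglia, where 54.7% of all genes were. In peak-tamoxifen remyelination all 8 were called in both genotypes, with 58.7% of all genes called in Cre+ and 58.5% in Cre- microglia. Members' median log2 fold changes were -1.46 (Cre+) and -0.99 (Cre-) for start tamoxifen and -1.30 (Cre+) and -1.15 (Cre-) for peak tamoxifen, beside 0.12, 0.06, 0.11 and 0.07 over all genes in the same order. Il1a had log2 fold changes of -1.49 (start) and -1.33 (peak) in Cre+ and -0.64 (start) and -0.97 (peak) in Cre- microglia. Those of Casp1 were -1.42 (start) and -1.27 (peak) in Cre+ and -1.16 (start) and -1.34 (peak) in Cre- microglia. Pycard had -0.95 (start) and -0.96 (peak) in Cre+ and -0.82 (start) and -0.71 (peak) in Cre- microglia, and Il18 had -0.43 in Cre+ microglia with peak tamoxifen and -0.46 (start) and -0.40 (peak) in Cre- microglia. Border macrophage markers summed to 754 to 1277 CPM in remyelination libraries, against 236 to 397 CPM in the naive and demyelination libraries, and their part in these values was not tested. Of these markers Stab1 alone reached 799 CPM in a remyelination library. The Il18 call in Cre+ microglia with peak tamoxifen was lost without peak-tamoxifen Cre+ replicate 3 (-0.29, adjusted p = 0.129), without demyelination Cre+ replicate 2 (-0.32, adjusted p = 0.0981) and without the neutrophil-marker-high libraries (-0.29, adjusted p = 0.136). In Cre- microglia the Il18 calls were lost without any one of demyelination Cre- replicate 1 and start-tamoxifen replicate 3 (start, adjusted p 0.0565 to 0.0855), or of demyelination Cre- replicate 1 and peak-tamoxifen replicates 2 and 3 (peak, adjusted p 0.0988 to 0.154). With length and GC offsets the peak-tamoxifen Il18 calls were lost in Cre+ (-0.25, adjusted p = 0.116) and Cre- microglia (-0.28, adjusted p = 0.0614). That of Cre- microglia was also lost with the groups compared alone (-0.37, adjusted p = 0.0651). In start-tamoxifen Cre+ microglia Il18 was called with no filter (adjusted p = 0.0196) and with the groups compared alone (adjusted p = 0.0284). In start-tamoxifen Cre- microglia the Il1a call was lost with length and GC offsets (-0.29, adjusted p = 0.0935), and the Il1b call with the groups compared alone (-1.25, adjusted p = 0.0552).

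In naive microglia the genotypes differed in cytokine and in inflammasome genes. Tnf was 2.16-fold lower, Il1rn 2.62-fold lower, Il18 1.43-fold lower and Pycard 1.35-fold lower in Cre+ than in Cre- microglia, and Nlrp3 was 1.62-fold higher. Il1b and Casp1 had log2 fold changes of 0.06 ± 0.32 (SE, adjusted p = 0.919) and -0.00 ± 0.10 (adjusted p = 0.994), and Il1a of -0.28 ± 0.16 (adjusted p = 0.209) although its Cre+ libraries all lay below its Cre- libraries. So 5 of the 8 genes were called, where 28.3% of all tested genes were, and the members' median was -0.36 beside -0.01 over all genes. Adjusted p-values (edgeR) were 0.00308 for Il1rn, 0.00328 for Tnf, 0.0078 for Il18, 0.00246 for Pycard and 2.3e-05 for Nlrp3, and the 5 calls held in all 13 alternatives run. Without naive Cre+ replicate 1, the low-Cx3cr1 library, and the 2 such demyelination libraries, the log2 fold changes were -1.08 for Il1rn, -0.98 for Tnf, -0.54 for Il18, -0.41 for Pycard and 0.69 for Nlrp3. The astrocyte marker sum was lower in every naive Cre+ library (67.6 to 82.7 CPM) than in any naive Cre- library (95.7 to 181 CPM). The neuron marker sum was higher in every naive Cre+ library (4.98 to 6.04 CPM) than in any naive Cre- library (2.57 to 3.95 CPM). The neutrophil marker sums overlapped (Cre+ 1103 to 1558 CPM, Cre- 1068 to 1279 CPM). The part of these in the genotype differences was not tested.

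In demyelination Il1a was the one member called between genotypes, 1.5-fold higher in Cre+ than in Cre- microglia (log2 0.58 ± 0.16, SE, adjusted p = 0.0248, n = 3 each), where 9.17% of all tested genes were called. This call was lost without demyelination Cre+ replicate 1 or 3 or any one of the 3 Cre- replicates (log2 0.44 to 0.61, adjusted p 0.0581 to 0.189), and without the low-Cx3cr1 libraries, which leaves 1 demyelination Cre+ library whose spread is assumed to be that of the other groups (0.38, adjusted p = 0.767). Il18 differed by -0.41 ± 0.15 (adjusted p = 0.0749), with its Cre+ libraries all below its Cre- libraries. It was called with the groups compared alone, with length and GC offsets and without demyelination Cre+ replicate 2 (adjusted p 0.0242 to 0.0345). The others stood at -0.29 (Il1b), -0.13 (Nlrp3), -0.06 (Il1rn), 0.04 (Pycard), 0.05 (Casp1) and 0.07 (Tnf), with adjusted p-values from 0.513 upward. Neutrophil markers summed to 2038 to 2438 CPM in demyelination Cre+ and 925.3 to 1640 CPM in demyelination Cre- libraries. Endothelium sums did not overlap either (Cre+ 108 to 110 CPM, Cre- 80.0 to 99.7 CPM). The part of these markers in the values was not tested.

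**Figure D3:**
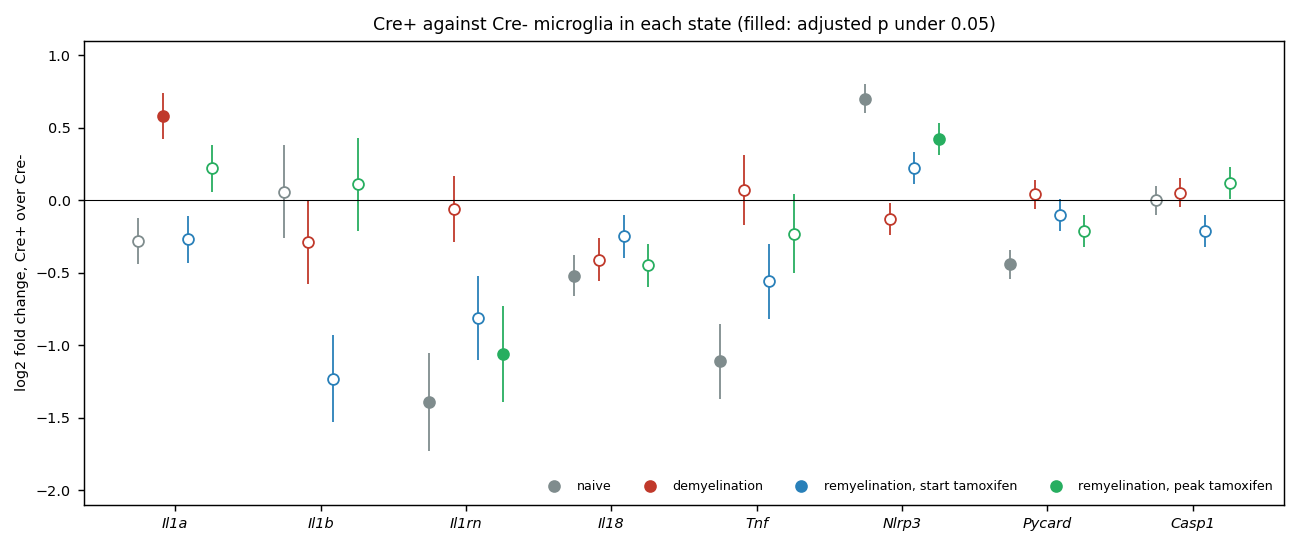
Log2 fold change of Cre+ over Cre- microglia for each gene in the 4 states, with its standard error (n = 3 per group), filled where the adjusted p is under 0.05. Il1rn, Il18, Tnf and Pycard lie below 0 and Nlrp3 above 0 in the naive state, while Il1a is above 0 in demyelination.

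In peak-tamoxifen remyelination the genotypes differed in Il1rn and Nlrp3. Il1rn was 2.08-fold lower (log2 -1.06 ± 0.33, SE, adjusted p = 0.0412) and Nlrp3 1.34-fold higher (0.42 ± 0.11, adjusted p = 0.011) in Cre+ than in Cre- microglia. These were 2 of the 8 genes, where 11% of all tested genes were called. The Il1rn call was lost without peak-tamoxifen Cre+ replicate 1 or 2 or Cre- replicate 1 or 2 (adjusted p 0.0837 to 0.195), and the Nlrp3 call without Cre+ replicate 3 or Cre- replicate 1 or 2 (adjusted p 0.0517 to 0.0562). Without the neutrophil-marker-high libraries both stayed called, at -1.39 (adjusted p = 0.0257) and 0.38 (adjusted p = 0.0484). The Il1rn call was also lost with the groups compared alone (adjusted p = 0.0755). Il18 stood at -0.45 ± 0.15 (adjusted p = 0.063). It was called with no filter, with DESeq2, with length and GC offsets and with the replicate block (0.0312). It was also called without peak-tamoxifen Cre+ replicate 1 or Cre- replicate 2 or 3. Adjusted p-values of these Il18 calls ran from 0.00987 to 0.0477. The others were not called, at -0.23 (Tnf), -0.21 (Pycard), 0.11 (Il1b), 0.12 (Casp1) and 0.22 (Il1a), with adjusted p-values from 0.223 to 0.864. Peak-tamoxifen Cre+ replicate 3 also had the highest monocyte sum of its group (659 CPM, against 93.0 and 94.1 CPM in the others). Most of that sum was a single gene, Chil3, at 553 CPM. Monocyte sums did not overlap between these genotypes (Cre+ 93.0 to 659 CPM, Cre- 56.3 to 81.7 CPM). Astrocyte sums (Cre+ 138 to 215 CPM, Cre- 259 to 435 CPM) and endothelium sums (Cre+ 25.0 to 41.6 CPM, Cre- 48.1 to 74.4 CPM) did not overlap either. The part of these in the genotype differences was not tested.

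With start tamoxifen 0 of the 8 genes were called, where 0.0341% of all tested genes were. Il1b, Il1rn and Tnf, 3 of the 8, had unadjusted p-values (edgeR) under 0.05, as had 9.43% of all tested genes, at log2 fold changes of -1.23 ± 0.30 (adjusted p = 0.219), -0.81 ± 0.29 (adjusted p = 0.339) and -0.56 ± 0.26 (adjusted p = 0.507), and DESeq2 called 1, Il1b (adjusted p = 0.0334). The others stood at -0.27 (Il1a), -0.25 (Il18), -0.21 (Casp1), -0.10 (Pycard) and 0.22 (Nlrp3), with adjusted p-values from 0.538 to 0.846. Without start-tamoxifen Cre- replicate 2, the library high in neutrophil markers, and peak-tamoxifen Cre+ replicate 3, these values were -0.75 for Il1b, -0.60 for Il1rn and -0.17 for Tnf. That Cre- library also had the highest monocyte sum (428 CPM, against 136 and 286 CPM in the others of its group) and the highest immediate early gene sum (11200 CPM, against 6611 and 7638 CPM). The difference between the genotype effects with peak and with start tamoxifen was called for 0 of the 8 genes, where 3.77% of all genes were, while 3 had unadjusted p-values under 0.05, as had 19.3% of all genes, and DESeq2 called 1, Il1b (adjusted p = 0.0457). For Il1b it was 1.34 ± 0.44 (log2, edgeR, adjusted p = 0.0976). For the others it was 0.49 (Il1a), 0.34 (Tnf), 0.33 (Casp1), 0.20 (Nlrp3), -0.11 (Pycard), -0.19 (Il18) and -0.25 (Il1rn), with adjusted p-values from 0.233 to 0.806.

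**Figure D4:**
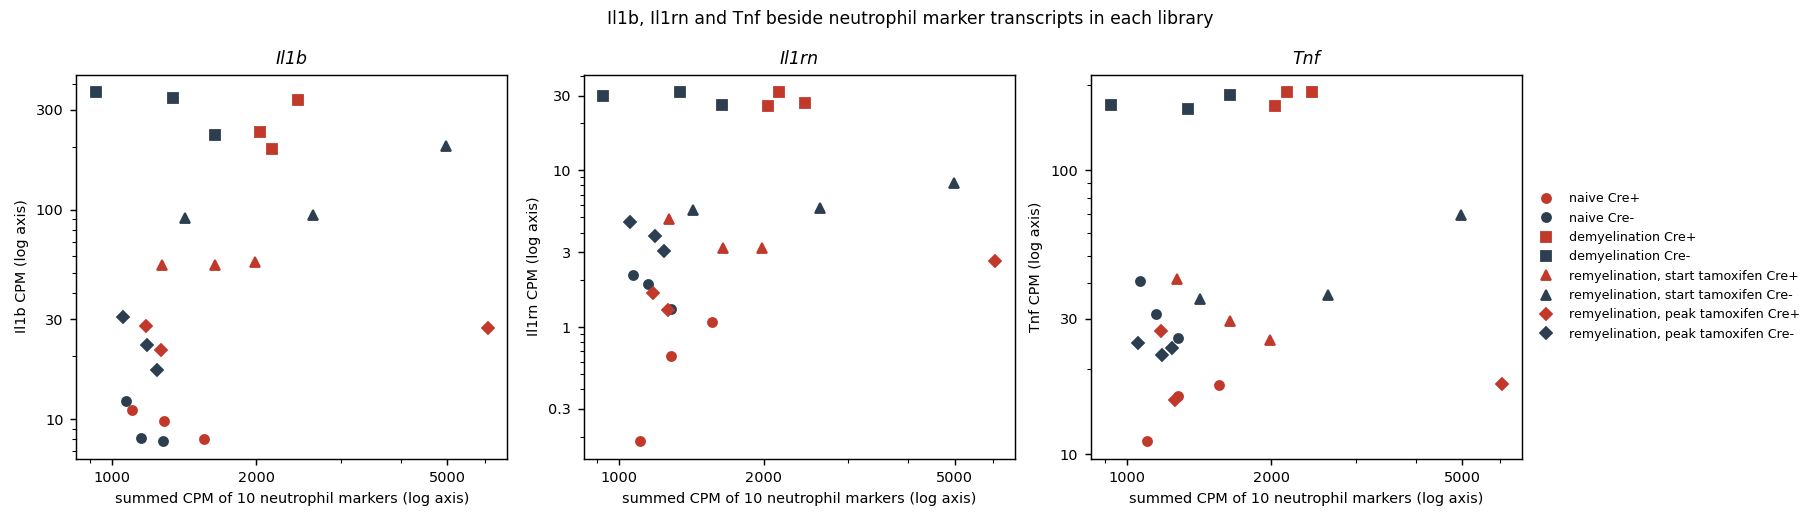
Level of Il1b, Il1rn and Tnf against the summed level of 10 neutrophil marker genes in each of the 24 libraries, both in CPM on log axes, with shapes for states and colours for genotype. The demyelination libraries stand highest for Il1rn and Tnf at neutrophil sums of 925.3 to 2438 CPM, the library with a sum of 4972 CPM (start-tamoxifen Cre-) is the highest of its group for all 3 genes, and the library with 6068 CPM (peak-tamoxifen Cre+) is the highest of its group for Il1rn alone.

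The genotype effect in demyelination differed from that in the naive state for 5 of the 8 genes, where 15.8% of all tested genes were called. The difference was positive for Il1a (0.86 ± 0.23, log2, SE, adjusted p = 0.0123), Il1rn (1.33 ± 0.41, adjusted p = 0.0284), Tnf (1.19 ± 0.35, adjusted p = 0.0284) and Pycard (0.48 ± 0.15, adjusted p = 0.0265). It was negative for Nlrp3 (-0.83 ± 0.15, adjusted p = 0.000763). It was not called for Il1b (-0.35 ± 0.43, adjusted p = 0.655), Il18 (0.10 ± 0.20, adjusted p = 0.801) or Casp1 (0.06 ± 0.14, adjusted p = 0.858). Thus Tnf, Il1rn and Pycard were lower in Cre+ than in Cre- microglia in the naive state and overlapped between genotypes in demyelination, and Nlrp3 was higher in Cre+ microglia in the naive state and overlapped in demyelination. The Nlrp3 call held in all 20 alternatives. Without the low-Cx3cr1 libraries the calls of Il1a (0.75, adjusted p = 0.1), Il1rn (1.23, adjusted p = 0.0637) and Tnf (1.15, adjusted p = 0.118) were lost. With replicate number as a block within each genotype, which pairs the naive and demyelination libraries, the Tnf call was lost (adjusted p = 0.0549) and the other 4 calls were made. Tnf was not called with length and GC offsets either (adjusted p = 0.0556), nor Pycard with the groups compared alone (adjusted p = 0.0559). The Il1rn call ended without any one of naive Cre+ replicates 1 and 2, naive Cre- replicates 1 and 3, demyelination Cre+ replicate 2 and demyelination Cre- replicate 3 (adjusted p 0.0565 to 0.0674). That of Tnf ended without any one of naive Cre+ replicate 1, naive Cre- replicate 1, and replicates 1 and 2 of either demyelination group (adjusted p 0.0557 to 0.0697). That of Pycard ended without any one of naive Cre+ replicates 1 and 3, naive Cre- replicate 2, demyelination Cre+ replicate 2 and demyelination Cre- replicate 3 (adjusted p 0.0559 to 0.0994).

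Genes around the 8 members were read from lists of receptors, adaptors and regulators. Their counts stand beside the share of all tested genes called, which was 28.3% between naive genotypes, 9.17% between demyelination genotypes, 11% between peak-tamoxifen genotypes, and 52.2% in Cre+ and 35.9% in Cre- microglia for demyelination over naive. The number of calls in a list is read against these shares, and nothing is read from a count near them. Of 10 tested interleukin-1 family receptors, decoys and other ligands, 2 were higher and 3 lower in naive Cre+ than in naive Cre- microglia, with a median log2 fold change of -0.35. Il1r2, the decoy receptor that binds interleukin-1 without signalling, was higher (2.90 ± 0.64, SE, adjusted p = 0.00213), at 8.38, 1.88 and 3.15 CPM in Cre+ libraries, against 0.556 to 0.604 CPM in Cre- libraries. Il1r2 was also higher in demyelination (1.94 ± 0.60, adjusted p = 0.0481), at 8.60, 1.75 and 6.48 CPM in Cre+ libraries, against 1.26 to 1.61 CPM in Cre- libraries. In peak-tamoxifen remyelination it was higher too (2.31 ± 0.68, adjusted p = 0.0347), at 1.73, 3.70 and 8.75 CPM in Cre+ libraries, against 0.852 to 0.988 CPM in Cre- libraries. Its highest levels were in the 3 low-Cx3cr1 libraries and in peak-tamoxifen Cre+ replicate 3, a neutrophil-marker-high library. Without the low-Cx3cr1 libraries its call held in the naive state (2.05, adjusted p = 0.00277) and was lost in demyelination (0.30, adjusted p = 0.966), and without the neutrophil-marker-high libraries it was lost in peak-tamoxifen remyelination (1.52, adjusted p = 0.177). Sigirr, a receptor that dampens interleukin-1 signalling, was lower in naive Cre+ than in naive Cre- microglia (-1.55 ± 0.37, adjusted p = 0.00239), and so was Il1r1, the signalling receptor (-0.90 ± 0.29, adjusted p = 0.0218), a call lost without the low-Cx3cr1 libraries (-0.85, adjusted p = 0.0664).

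With demyelination 5 of these 10 genes were higher and 1 lower in Cre+ microglia, and 4 higher and 1 lower in Cre- microglia, beside 52.2% and 35.9% of all genes called in either direction. Il18bp, which encodes a soluble binder of interleukin-18, rose by 2.67 ± 0.23 (log2, SE, adjusted p = 2.79e-10) in Cre+ and 2.66 ± 0.24 (adjusted p = 1.63e-09) in Cre- microglia. Its level was 19.8 to 32.4 CPM in demyelination Cre+ and 12.2 to 21.7 CPM in demyelination Cre- libraries, against 2.28 to 5.07 CPM in naive libraries of both genotypes. Il1r1 rose by 2.65 ± 0.29 (adjusted p = 2.03e-08) in Cre+ and 1.86 ± 0.28 (adjusted p = 5.69e-06) in Cre- microglia. Of 15 genes of the interleukin-1 receptor and Toll adaptor chain, 2 were higher and 9 lower with demyelination in Cre+ microglia, among them Traf6 (-0.83 ± 0.12, adjusted p = 2.14e-06), and 1 was higher and 5 lower in Cre- microglia, among them Myd88 (-0.48 ± 0.09, adjusted p = 0.000163). Between genotypes 3 of the 15 were higher in naive Cre+ than in naive Cre- microglia, led by the kinase gene Map3k7 (0.87 ± 0.17, adjusted p = 0.000523), and none was called in demyelination or in either remyelination state.

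Of 21 genes of TNF receptors and signalling, 7 were higher and 10 lower with demyelination in Cre+ microglia and 4 higher and 9 lower in Cre- microglia (all genes, 52.2% in Cre+ and 35.9% in Cre-), and in Cre- microglia Tnfaip3, an inhibitor of NF-kB signalling, rose (0.92 ± 0.12, SE, adjusted p = 8.54e-07). Ripk3, a kinase of necroptosis, was lower in naive Cre+ than in naive Cre- microglia (-1.10 ± 0.19, adjusted p = 0.000136), and the list had 3 higher and 2 lower there. In demyelination 3 of the 21 were lower and none higher in Cre+ microglia, including the receptor gene Tnfrsf1b (-0.45 ± 0.13, adjusted p = 0.0298), a call lost without the low-Cx3cr1 libraries (-0.36, adjusted p = 0.69). Of 19 other inflammasome and pyroptosis genes, 5 were higher and 4 lower in naive Cre+ than in naive Cre- microglia. With demyelination 5 were higher and 6 lower in Cre+ microglia, a share close to that of all genes (52.2%). In Cre- microglia 7 were higher and 5 lower, a share above that of all genes (35.9%), and the difference in share was not tested. Without the low-Cx3cr1 libraries 2 of the 19 were higher and 2 lower in naive Cre+ microglia, and of the 10 interleukin-1 family genes 1 was higher and 2 lower. Over all genes the 13 alternatives, this one among them, called 3734 to 5273 between naive genotypes, against 4982 with all libraries. Gsdmd, whose product forms the membrane pore of pyroptosis, fell by 0.71 ± 0.09 (adjusted p = 1.11e-07) with demyelination in Cre+ microglia. Between demyelination genotypes 2 of the 19 were higher and 1 lower in Cre+ microglia. The higher ones were Pstpip1 (1.32 ± 0.32, adjusted p = 0.0108) and Naip2 (0.38 ± 0.10, adjusted p = 0.0221), and the lower one was P2rx7, the ATP-gated channel upstream of NLRP3 (-0.38 ± 0.09, adjusted p = 0.0118). Without the low-Cx3cr1 libraries these stood at 0.39, 0.12 and -0.28 in the same order, none called (adjusted p 0.689 to 0.905).

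Of 14 NF-kB subunits and inhibitors, 3 were higher and 3 lower in naive Cre+ than in naive Cre- microglia, 3 were lower and none higher in demyelination, and 2 were higher and 2 lower in peak-tamoxifen remyelination. Nfkbie, an inhibitor of NF-kB, was lower in Cre+ than in Cre- microglia in naive (-0.67 ± 0.10, SE, adjusted p = 2.7e-05), demyelination (-0.67 ± 0.10, adjusted p = 0.000378) and peak-tamoxifen remyelination (-0.58 ± 0.11, adjusted p = 0.000615), and its demyelination call was lost without the low-Cx3cr1 libraries (-0.54, adjusted p = 0.111). Nfkbiz, a regulator induced by interleukin-1, was lower in naive Cre+ microglia (-1.38 ± 0.22, adjusted p = 0.000101) and rose by 2.69 ± 0.22 (adjusted p = 3.99e-09) with demyelination in Cre+ microglia. The genotype effect in demyelination differed from that in the naive state for 5 of the 14, where 15.8% of all genes were called, and was more positive for 1 and more negative for 4. The positive one was Nfkbiz (1.22 ± 0.30, adjusted p = 0.00945), whose call was lost without the low-Cx3cr1 libraries (1.08, adjusted p = 0.0812). Among the negative ones were Rela, a subunit of NF-kB (-0.77 ± 0.15, adjusted p = 0.00126), and Ikbkb, which encodes a kinase of its inhibitors (-0.47 ± 0.13, adjusted p = 0.0154). Without the low-Cx3cr1 libraries, which leaves 1 demyelination Cre+ library, Rela stood at -0.83, and the other calls among the 14 were lost. Of 10 decay and stability factors of cytokine transcripts, 5 were higher and 1 lower in naive Cre+ than in naive Cre- microglia, among them Khsrp (1.61 ± 0.26, adjusted p = 0.000179), which promotes decay of AU-rich transcripts. With demyelination 3 of the 10 were higher and 6 lower in Cre+ microglia (median log2 fold change -0.49), and 5 were higher and 1 lower in Cre- microglia (median 0.47). In Cre+ microglia fewer of the 10 were called without the low-Cx3cr1 libraries, which leaves 1 demyelination Cre+ library, and nothing is read from that number. The difference between genotype effects in demyelination and in the naive state was negative for 4 of the 10, positive for none, and led by Khsrp (-1.69 ± 0.37, adjusted p = 0.00504). Zfp36, whose product binds the AU-rich stretch of Tnf, rose by 0.97 ± 0.17 (adjusted p = 5.21e-05) with demyelination in Cre+ and 1.02 ± 0.17 (adjusted p = 5.7e-05) in Cre- microglia. In start-tamoxifen remyelination no gene of these lists was called between genotypes.

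Immediate early and dissociation genes are known to rise while cells are isolated. Of 16, 2 were higher and 5 lower in naive Cre+ than in naive Cre- microglia, where 28.3% of all genes were called. With demyelination 8 were higher and 3 lower in Cre+ microglia (all genes, 52.2%), and 9 higher and 3 lower in Cre- microglia (all genes, 35.9%). The chemokine gene Ccl4 was lower in naive Cre+ microglia (-1.64 ± 0.25, SE, adjusted p = 0.000115) and rose by 3.56 ± 0.27 (adjusted p = 2.65e-09) with demyelination in Cre+ and 1.93 ± 0.25 (adjusted p = 7.58e-06) in Cre- microglia. The summed level of the list was 6271 to 7611 CPM in naive Cre+ and 6395 to 9716 CPM in naive Cre- libraries, and 9951 to 11270 CPM in demyelination Cre+ and 11700 to 12120 CPM in demyelination Cre- libraries. It was 3429 to 5108 CPM in peak-tamoxifen Cre+ and 3618 to 3865 CPM in peak-tamoxifen Cre- libraries. The part of cell isolation in the levels of the 8 genes was not tested.

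Across the 24 libraries the genes most like each member, by Pearson correlation of log2 CPM among 9797 genes, were Id2, Ccl4 and Rilpl2 for Tnf (0.99, 0.98 and 0.98), Optn, Nceh1 and Fgr for Il1rn (0.98 each) and Cyp4f18, Igf1 and Cdk18 for Il1b (0.96, 0.95 and 0.95). Il1a was most like Mapre1, Rpe and Mospd1 (0.97, 0.97 and 0.96), Il18 most like Mterf3, Zfp994 and Thumpd3 (0.92 each), and Nlrp3 most like Ankrd44, Ssh2 and Camta2 (0.94 each). Pycard was most like Abhd12, Cnpy2 and Itm2b (0.98, 0.98 and 0.97) and Casp1 most like Vdac2, Ggnbp2 and Ik (0.98 each). Among the members themselves the correlation was 0.94 for Il1rn with Tnf, 0.92 for Il1b with Il1rn, 0.92 for Il1a with Casp1 and 0.17 for Il1a with Il1b. For Nlrp3 it was -0.84 with Pycard, -0.81 with Tnf and -0.54 with Il1b. The libraries share state and depth, so these are descriptions.

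Ordered by group mean, Il1b ran from demyelination Cre- (312 ± 73.6 CPM, SD, n = 3) and demyelination Cre+ (255 ± 71.1 CPM) through start-tamoxifen Cre- (129 ± 63.3 CPM), start-tamoxifen Cre+ (55.1 ± 0.795 CPM), peak-tamoxifen Cre+ (25.5 ± 3.52 CPM) and peak-tamoxifen Cre- (23.4 ± 6.79 CPM) to naive Cre+ (9.63 ± 1.53 CPM) and naive Cre- (9.35 ± 2.41 CPM). The library ranges overlapped in 4 of its 7 neighbouring pairs, and separated start-tamoxifen Cre- from Cre+, start-tamoxifen Cre+ from peak-tamoxifen Cre+, and peak-tamoxifen Cre- from naive Cre+. Nlrp3 had peak-tamoxifen Cre+ (70.2 ± 5.47 CPM) and naive Cre+ (66.2 ± 6.52 CPM) at the top and demyelination Cre- (37.5 ± 1.37 CPM) and demyelination Cre+ (34.3 ± 5.22 CPM) at the bottom, each of these pairs overlapping. Its order was not that of Il1b reversed, as naive Cre- (40.8 ± 2.80 CPM) came next above demyelination Cre-. For Tnf both demyelination groups, at 181 ± 11.8 CPM in Cre+ and 172 ± 10.3 CPM in Cre-, overlapped each other and lay clear of start-tamoxifen Cre- (47.1 ± 19.4 CPM), and naive Cre+ (14.9 ± 3.34 CPM) was the lowest group. Neighbouring pairs overlapped in 5 of 7 for Il1a, Tnf, Pycard and Casp1, 6 of 7 for Il18, and 3 of 7 for Il1rn and Nlrp3.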

How the data were processed

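RNA was extracted with the RNeasy Mini Kit and made into libraries with an ultra-low input kit, per the labels' protocols. The submitters' processing notes name Trimmomatic 0.36, STAR 2.5.2b, the build GRCm38, featureCounts (Subread 1.5.2) and DESeq2. The table deposited by the authors holds raw counts per Ensembl gene in 24 libraries, and 0 of its count columns were left unused. Strand setting, multimapping and annotation: not given in the sources used here. Symbols came from GENCODE M21, which held 49056 of 49315 identifiers.

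In R 4.3.3, edgeR 4.0.16 fitted the 8 group means to all libraries (filterByExpr, TMM, robust quasi-likelihood dispersion, 16 residual degrees of freedom). Its quasi-likelihood F test was 2-sided. P-values were adjusted by Benjamini-Hochberg over all 17579 genes, and a gene was called under 0.05. There were 12 comparisons. TMM factors ran from 0.79 to 1.23. By rule, all 8 members are named in every comparison, and genes of a list from the 3 with the smallest p-values among those called in a comparison. Likeness used log2 CPM with a prior count of 2, over genes with a mean log2 CPM of at least 2. Alternatives were DESeq2 1.42.0, RLE scaling, no filter, the groups compared alone, offsets for length and GC content, a replicate block, leaving out each replicate, and leaving out the low-Cx3cr1 libraries. Leaving out the neutrophil-marker-high libraries, a replicate block within genotype for the interaction, and the lists without libraries that stand apart were added after seeing the data. The members and lists were chosen with earlier results of these data known. The fit was tested on simulated data. No sample repeats another. Same-numbered libraries deviated together in every pair between demyelination and naive Cre+ microglia (r = 0.12, 0.12 and 0.11). Between genotypes they did so in every peak-tamoxifen pair (r = 0.15, 0.29 and 0.08) and every naive pair (r = 0.04, 0.06 and 0.09). They did not in every demyelination pair (r = 0.02, -0.02 and -0.03) or start-tamoxifen pair (r = 0.03, -0.02 and -0.04). Promoters, microRNAs and their coordinates are RefSeq's for GRCm38.p6, matched by symbol, and 3′ untranslated regions are those of the GENCODE annotation.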

Additional observations from a re-analysis of the deposited data

Results flagged for a closer look

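For 5 genes the genotype difference (Cre+ over Cre-) in demyelination and in the naive state differed by a test of the difference itself, the interaction term of the edgeR fit, with p-values adjusted over all tested genes. For Il1a the interaction was 0.86 on the log2 scale, with a genotype difference of 0.58 in demyelination and -0.28 in the naive state. For Il1rn it was 1.33 (-0.06 in demyelination and -1.39 in the naive state), for Tnf 1.19 (0.07 and -1.11 in the same order) and for Pycard 0.48 (0.04 and -0.44). For Nlrp3 it was -0.83, with -0.13 in demyelination and 0.70 in the naive state. The 2 low-Cx3cr1 demyelination Cre+ libraries and the low-Cx3cr1 naive Cre+ library enter each of these values. Without them the interaction was 0.75 for Il1a, 1.23 for Il1rn and 1.15 for Tnf, none of which was called, and Nlrp3 and Pycard were called with 1 demyelination Cre+ library left. With replicate number as a block within each genotype the Tnf call was lost (adjusted p = 0.0549). Of 20 alternatives, 10 ended the call of Tnf, 8 that of Il1rn, 6 that of Pycard, 1 that of Il1a and 0 that of Nlrp3.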

How the results depend on the processing

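Of the members' log2 fold changes, 609 kept their sign and their side of the threshold when one library was left out, 39 lost and 5 gained a call, and 19 changed sign. Under the other settings the numbers were 673, 21, 17 and 9. In the naive genotype comparison all settings called 5 members. Demyelination genotype calls numbered 2 members with the groups compared alone, with length and GC offsets and with the replicate block, and 0 members and 81 genes without the low-Cx3cr1 libraries; leaving out one library gave 0 to 2 members and 417 to 2114 genes. For start tamoxifen 81 genes were called with no filter, 45 with DESeq2 and 45 with the groups compared alone, 11 without the low-Cx3cr1 libraries, and 1 to 6 with one library left out, and DESeq2 called 1 member. For peak tamoxifen 1040 genes were called without the neutrophil-marker-high libraries and 883 to 2176 with one library left out, with 1 member when the groups compared were fitted alone and 0 to 3 with one library left out. For the demyelination and naive interaction, 3 members were called with the replicate block, 2 members and 1631 genes without the low-Cx3cr1 libraries, and 2 to 5 members with one library left out. The replicate block moved no other count of members by over 1.5 times. Between genotypes it joins same-numbered libraries, which deviated together in every peak-tamoxifen and naive pair, and not in every demyelination or start-tamoxifen pair. With it the Il1rn call for peak tamoxifen (adjusted p = 0.0931) and the Il1rn (0.0721) and Tnf (0.121) calls of the interaction were not made. Il18 was called with it between demyelination (0.037) and peak-tamoxifen (0.0312) genotypes. For the interaction of tamoxifen timing, 212 genes were called without the neutrophil-marker-high libraries and 265 to 944 with one library left out, and DESeq2 called 1 member. The cause of these shifts was not tested.

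The called value that changed sign was Casp1 for demyelination over naive in Cre+ microglia (-0.07 with length and GC offsets). Values never called that changed sign were, with those offsets, Casp1 between naive genotypes (0.14), Pycard for demyelination over naive in Cre- microglia (-0.04), and Il18 (-0.05) and Casp1 (-0.11) for the demyelination and naive interaction. Without the low-Cx3cr1 libraries they were Il1b between naive genotypes (-0.07), and Il1rn (0.16) and Casp1 (-0.05) between demyelination genotypes, and with no filter Il1rn between demyelination genotypes (0.00). With one library left out, the ranges were -0.05 to 0.27 for Il1b and -0.08 to 0.09 for Casp1 between naive genotypes, and -0.15 to 0.00 for Il1rn, -0.05 to 0.10 for Pycard and -0.04 to 0.12 for Casp1 between demyelination genotypes. They were -0.07 to 0.36 for Il1b with peak tamoxifen, 0.00 to 0.17 for Il18 and -0.04 to 0.14 for Casp1 for the demyelination and naive interaction, and -0.34 to 0.03 for Il18 and -0.06 to 0.56 for Tnf for the interaction of tamoxifen timing. With RLE scaling 0 of 64 group means moved by 1 SD or more. Il1rn rests on 4 to 57 reads in naive libraries, which limits its precision there.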
